A study of Fagopyrum tataricum with 12 samples.

Results

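The late state of Tartary buckwheat (Fagopyrum tataricum, cultivar Dingku1) in 20% PEG-6000 was set directly against the early one: 3 libraries from seedlings held in it for 8 h against 3 from seedlings held in it for 2 h, 6 of the 12 libraries of the series, across all 26750 genes counted. Each library was made from leaf and stem RNA of hydroponic seedlings that were treated at the 2-leaf stage under long days. The other libraries, 3 after 4 h in PEG and 3 controls in Hoagland's nutrient solution at 0 h, share the fit and are given here only as levels. All libraries come from the same cultivar and carry no other treatment. Nothing in the labels tells whether replicates were separate plants, and the p-values therefore rest on a spread between libraries that may be technical. The 2, 4 and 8 h stages have no untreated counterpart, which means that time spent in PEG and time of day cannot be told apart in any value that follows.

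PEG-6000, a large polymer that stays outside the cells, draws water away from the roots. Plants answer such water deficit first with signalling, much of it through the hormone abscisic acid (ABA), and later with protective proteins of the kind that dry seeds store, such as late embryogenesis abundant (LEA) proteins and dehydrins, while photosynthesis and growth are held back. Many of the same genes also follow the circadian clock, in which morning factors such as LHY and evening components such as APRR1 (TOC1) and LUX repress each other.

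Library totals were 30468104 to 35551931 counted reads at 8 h, against 34154788 to 36367529 at 2 h. Replicates were close: the Spearman correlation over genes was 0.997 within each of the 2 groups, and lay between 0.942 and 0.943 for a library at 8 h and one at 2 h. Of 22063 genes tested, 13963 (63.3%) passed the edgeR quasi-likelihood test at a false discovery rate of 0.05, of which 6903 (31.3% of those tested) were higher at 8 h and 7060 (32.0%) lower. With library totals as the scale, in place of edgeR's TMM factors, the median of all genes moved to 0.15 and the calls were 9380 higher and 5450 lower, so small changes depend on the scale. Most differences were small, with a median absolute log2 change of 0.58 among called genes. Changes of at least 2-fold were called for 4120 genes (18.7%), 1633 of them higher (7.4%) and 2487 lower (11.3%), and changes of at least 8-fold for 215 higher and 366 lower. The 3 libraries of one time lay wholly beyond the 3 of the other for 14673 genes (66.5%). These shares are the background for each gene list below, and are to be read beside the counts of each list, and the median log2 change over all tested genes was 0.02. In what follows a gene that rose or fell by a number did so on the log2 scale, 8 h over 2 h. Where the 6 libraries of a gene are listed, those of 8 h lie wholly above or wholly below those of 2 h unless an overlap is stated.

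**Figure D1:**
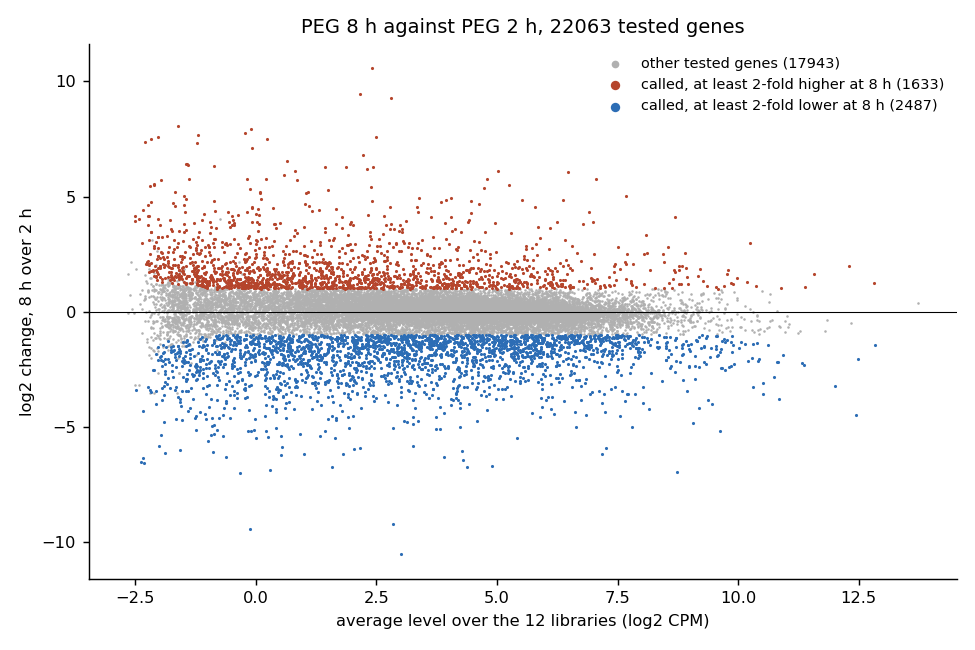
Log2 change of each of the 22063 tested genes, 8 h over 2 h (vertical axis), against its average level in log2 CPM (counts scaled to a common library size, horizontal axis). Coloured points are the called genes with at least a 2-fold change, 1633 higher and 2487 lower at 8 h, and they occur at all levels.

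The most abundant transcripts themselves differed between the times. ASR1 (Ft4.5893; identifiers are given without their shared prefix), an abscisic stress-ripening protein of the kind that accumulates in drying tissue, had 11030.5, 10787 and 10666 CPM at 8 h, against 2740.2, 2828 and 2742 CPM at 2 h (log2 change 1.97, SE 0.030, adjusted p 5.82e-37). All 3 libraries at 8 h were above all 3 at 2 h, and at 0 h its mean was 263 CPM. A second ASR1 gene, Ft2.3476, had 5901, 5622 and 5695 CPM at 8 h, against 1823, 1845 and 1839 CPM at 2 h (log2 change 1.64, SE 0.033, adjusted p 2.79e-33), again with no overlap. The small subunit of Rubisco, the enzyme that fixes carbon dioxide, stood at the other end: RBCS6 Ft5.2621 had 2799, 2858 and 2717 CPM at 8 h, against 7837, 7437 and 7629 CPM at 2 h (log2 change -1.45, SE 0.031, adjusted p 1.72e-32). Its neighbour RBCS6 Ft5.2620 had 1636, 1694 and 1588 CPM at 8 h, against 7166, 6768 and 6856 CPM at 2 h (log2 change -2.08, SE 0.032). At 8 h both ASR1 genes stood above both Rubisco genes in CPM, and at 2 h both stood below them. These are levels in CPM, which do not allow for the length of a gene. In bulk leaf and stem, fewer cells of a type and less RNA per cell cannot be told apart, here and for every list below. Among the 10 genes with the highest mean level were also Ft8.921 and Ft8.920, which carry no description in the files and averaged 15649.6 ± 472 CPM at 8 h, against 12110.4 ± 131 CPM at 2 h (log2 change 0.37) and 12062 ± 294 CPM at 8 h, against 5101 ± 121 CPM at 2 h (log2 change 1.24; SD, n = 3 each). Ubiquitin (UBI11, Ft5.2268), the heat shock cognate HSC-2 (Ft2.2877), TCTP (Ft8.2408), a protein that promotes growth, and Rubisco activase RCA1, given with the Calvin cycle, completed that set. The first 3 of these had log2 changes of -0.50, -0.84 and -0.34, all called lower at 8 h.

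The 12 largest rises, among called genes with a described product, a mean of at least 10 CPM and libraries that did not overlap, were led by TIP3-2 (Ft3.4505), a tonoplast aquaporin of a class that in Arabidopsis belongs to maturing seeds. TIP3-2 had 28.5, 25.2 and 23.8 CPM at 8 h, against 0.0279, 0.0294 and 0.0553 CPM at 2 h; the 2 h values rest on 1, 1 and 2 reads, so the ratio of summed reads, each sum taken per summed library total, was 753, with an exact binomial 95% interval of 294 to 2760 that covers counting error only. RTNLB13 (Ft4.4708), a reticulon that shapes the endoplasmic reticulum, had 126, 104 and 109.5 CPM at 8 h, against 1.56, 1.47 and 1.91 CPM at 2 h (log2 change 6.10, SE 0.11, adjusted p 3.01e-35). NPF6.2 (Ft3.79), of the nitrate and peptide transporter family, had 453, 433 and 414 CPM at 8 h, against 7.10, 9.04 and 7.66 CPM at 2 h (log2 change 5.77, SE 0.069, adjusted p 1.56e-40). Non-overlapping libraries were required for this choice, so the separation of the 2 times in these genes is not a further result.

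Further large rises included a storage globulin and an oil body enzyme. A gene annotated as vicilin, a globulin of seeds (Ft4.4147), had 99.2, 95.3 and 90.9 CPM at 8 h, against 1.23, 2.41 and 1.72 CPM at 2 h (log2 change 5.74, SE 0.10, adjusted p 1.6e-35), and the steroleosin-like STO-A (Ft2.5825, annotated as an 11-beta-hydroxysteroid dehydrogenase), an enzyme of oil bodies, had 699.6, 714 and 669 CPM at 8 h, against 21.7, 22.1 and 20.7 CPM at 2 h (log2 change 5.01, SE 0.047, adjusted p 1.29e-43). STO-A was near absent at 0 h, at 0.274 CPM, and reached 101 CPM at 4 h. The rest were LOX2.1 (Ft2.1281), a chloroplast 13-lipoxygenase, MLP31 (Ft6.1121), the carbohydrate esterase Ft2.4147, CYC2 (Ft8.4579), annotated as an 8-oxocitronellyl enol synthase, the small membrane protein LT101.2 (Ft2.2832), PARP3 (Ft4.77), known in Arabidopsis from seeds, and the chloroplast chaperone DJC76 (Ft6.2478), with log2 changes from 4.57 for DJC76 to 6.07 for LOX2.1. LOX2.1 and MLP31 differ from the others in their earlier levels: LOX2.1 averaged 104, 3.64, 3.39 and 245 CPM at 0, 2, 4 and 8 h and MLP31 46.2, 2.01, 11.9 and 91.5 CPM, so both were lower at 2 h than in the control.

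The 12 largest falls were led by both LHY genes, given with the clock below, and by 2 adjacent CONSTANS-LIKE genes, zinc finger factors of light and photoperiod responses. COL2 Ft5.2569 had 0.208, 0.0601 and 0.313 CPM at 8 h, against 21.3, 21.2 and 23.1 CPM at 2 h (log2 change -6.75, SE 0.16, adjusted p 4.41e-31), and COL2 Ft5.2570 had a log2 change of -6.07 (SE 0.18). Reads of near-identical neighbours can be split between them by the counting, so these 2 values may not be independent. TL1 (Ft3.106), a thaumatin-like protein of the pathogenesis-related PR-5 family, had 15.6, 15.8 and 15.4 CPM at 8 h, against 545, 601 and 558 CPM at 2 h (log2 change -5.19, SE 0.050, adjusted p 1.78e-43). Its level was not a steady decline: the means were 22.4, 568, 2550.3 and 15.6 CPM at 0, 2, 4 and 8 h, so that it peaked at 4 h and at 8 h was below the control. WAXY (Ft2.401), the granule-bound starch synthase that makes amylose, had 20.6, 22.6 and 24.02 CPM at 8 h, against 641, 634 and 646 CPM at 2 h (log2 change -4.84, SE 0.046, adjusted p 1.29e-43), and at 0 h it averaged 1233.6 CPM. CFAT (Ft7.3592), a coniferyl alcohol acyltransferase, ADNT1 (Ft4.1482), a mitochondrial adenine nucleotide carrier, RPL1 (Ft8.2680), a protein of the chloroplast ribosome, the aquaporin PIP2-2 (Ft2.2724), HMGB15 (Ft5.1699) and the receptor-like kinase CRK29 (Ft6.2242) made up the rest, between -5.91 and -4.60.

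**Figure D2:**
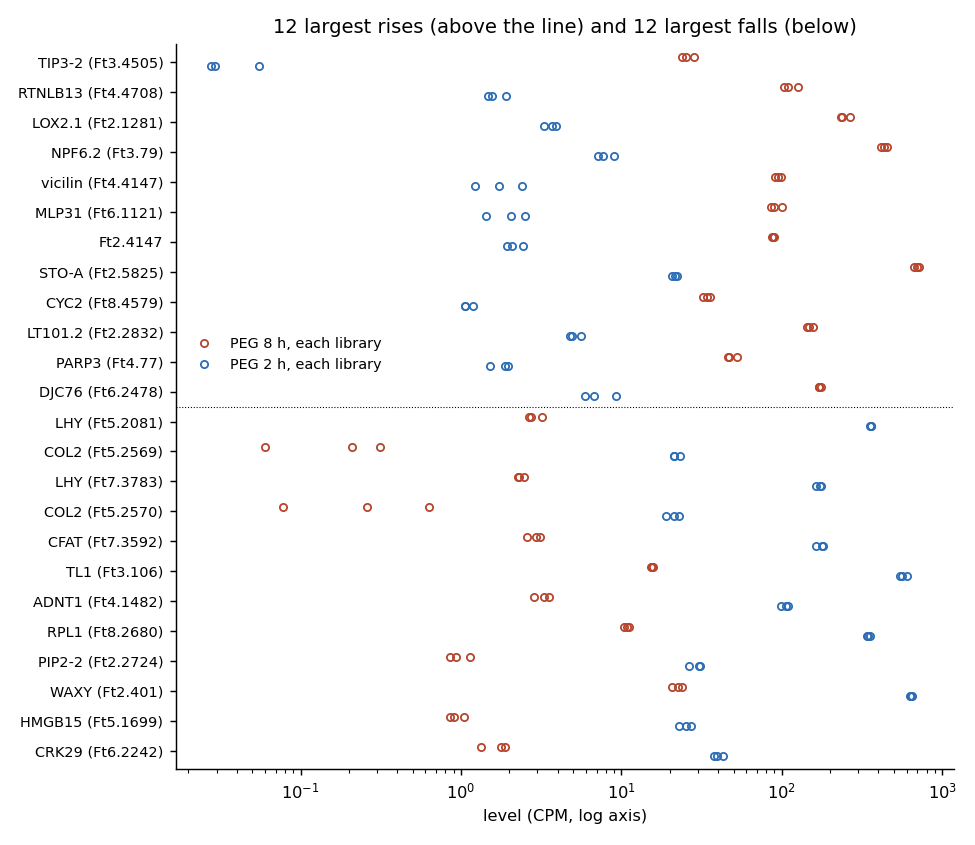
Level in CPM (log axis) of the 12 largest rises and 12 largest falls in each library, PEG 8 h and PEG 2 h. Libraries that do not overlap between the 2 times were a condition for choosing the 24 genes. The 2 h values of TIP3-2 stand for 1 or 2 reads each.

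Light harvesting and carbon fixation were lower at 8 h in nearly every gene. Of 20 tested genes for chlorophyll a-b binding proteins, the antennae that pass light energy to the photosystems, 19 fell, all of them by at least 2-fold, and 1 rose, with a median log2 change of -2.27 against 0.02 over all genes. CAB36 (Ft8.3607), the most abundant, had 471, 454 and 428 CPM at 8 h, against 4443, 4077 and 4282 CPM at 2 h (log2 change -3.24, SE 0.037, adjusted p 5.32e-41). LHCB5 (Ft3.2698), the CP26 antenna of photosystem II, fell furthest of those above 5 CPM, with 135, 135 and 130.04 CPM at 8 h, against 1921, 1763 and 1869.5 CPM at 2 h (log2 change -3.80, SE 0.039). Neither had any overlap between the times. The summed level of the antenna genes was 4121 to 4398 CPM at 8 h, against 21803 to 23625 CPM at 2 h, and it averaged 39835, 22673, 19809 and 4289 CPM at 0, 2, 4 and 8 h. LHCB7 (Ft8.4323) was the exception, at 36.5 ± 2.38 CPM at 8 h, against 25.7 ± 2.20 CPM at 2 h (SD, n = 3 each, log2 change 0.50). A run of 6 neighbouring antenna genes, Ft8.5180 to Ft8.5185, fell, with log2 changes of -1.64 to -3.28, though reads may be shared among copies so alike.

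The photosystems and electron transport followed with smaller changes: 33 of 36 tested genes fell, 19 by at least 2-fold, and 1 rose, with a median of -1.05. The largest fall there was PSBS (Ft2.3625), which switches the antenna to heat dissipation, at 26.4, 29.4 and 25.7 CPM at 8 h, against 267, 256 and 259 CPM at 2 h (log2 change -3.26, SE 0.048, adjusted p 1.38e-37). Of subunits above 5 CPM, PSAN (Ft7.4821) and PSAO (Ft2.5878) of photosystem I came next, at -2.19 and -2.03. The oxygen-evolving protein PSBO (Ft5.870) was the most abundant and fell less, to 1389 CPM at 8 h against 2479 CPM at 2 h (log2 change -0.84). A gene for the chloroplast ATP synthase gamma chain, ATPC (Ft7.4536), rose by 0.52 from a low level, while its abundant copy ATPC1 (Ft2.3020) fell by 1.26.

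Within the Calvin cycle 17 of 19 tested genes fell and 1 rose (median -1.88). RCA1 (Ft5.2681), Rubisco activase, had 251, 252 and 238 CPM at 8 h, against 5767, 5430.3 and 5659 CPM at 2 h, a fall of 22.7-fold (log2 change -4.51, SE 0.037, adjusted p 4.24e-45). Its mean was 14309, 5619, 2165 and 247 CPM at 0, 2, 4 and 8 h, a steady decline by group. Phosphoribulokinase (Ft2.692), which regenerates the acceptor of carbon dioxide, had 46.6, 44.1 and 43.3 CPM at 8 h, against 661, 622 and 633 CPM at 2 h (log2 change -3.84, SE 0.041). The one called rise was PGK1 (Ft2.1194), at 30.5 ± 1.47 CPM at 8 h, against 25.2 ± 2.17 CPM at 2 h (SD, n = 3 each), and 1 gene for fructose-1,6-bisphosphatase did not pass. Both Rubisco genes described above belong to this list, which summed to 6375 CPM at 8 h, against 27108 CPM at 2 h.

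Chlorophyll synthesis changed at particular steps. Of 27 tested genes 17 fell and 3 rose, with a median of -0.43. CHLH (Ft7.2841), the large subunit of the chelatase that inserts magnesium, had 48.1, 45.8 and 50.6 CPM at 8 h, against 756, 765 and 803 CPM at 2 h (log2 change -4.01, SE 0.046, adjusted p 5.32e-41), whereas the other chelatase subunits CHLI (Ft5.1043) and CHLD (Ft8.3944) had log2 changes of -0.68 and -0.27. The cyclase CRD1 (Ft5.1640), the entry enzyme HEMA1 (Ft4.5998) and the chlorophyll b enzyme CAO (Ft3.5275) fell (log2 changes -2.92, -2.74 and -2.26). GSA (Ft2.837), CPX (Ft8.400) and the chlorophyll synthase CHLG (Ft8.2923) rose by 0.13, 0.28 and 0.51.

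Clock genes changed in both directions, and both LHY genes were among the largest falls. Of 24 tested, 14 fell and 6 rose, 8 and 5 of them by at least 2-fold (median -0.51). The deposited pathway named circadian rhythm was more even, with 19 higher and 16 lower of 49 tested genes (median 0.002). The morning gene LHY (Ft5.2081), a MYB-like repressor of the evening genes, had 2.73, 2.65 and 3.18 CPM at 8 h, against 357, 362 and 354 CPM at 2 h, the largest fall among described genes averaging at least 10 CPM with libraries that did not overlap (log2 change -6.96, SE 0.061, adjusted p 1.92e-44). The second LHY gene (Ft7.3783) had 2.29, 2.47 and 2.27 CPM at 8 h, against 172, 176 and 164 CPM at 2 h (log2 change -6.19, SE 0.063, adjusted p 1.08e-42). In both, every library at 8 h was at a few CPM and every library at 2 h far above that. Libraries that did not overlap were a condition for the largest falls, so the separation itself is not a further result.

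Genes of the LNK family fell as well: LNK3 (Ft6.2587) had 3.46, 4.33 and 3.78 CPM at 8 h, against 91.9, 90.3 and 90.05 CPM at 2 h (log2 change -4.56, SE 0.065), and the 2 LNK2 genes, Ft2.6184 and Ft1.827, had log2 changes of -3.56 and -2.63. Of the LHY-related REVEILLE factors, RVE1 (Ft8.4852) fell by 1.84 and RVE8 (Ft2.5651) fell by 0.93. On the evening side, the repressor APRR1 (Ft1.2292, known as TOC1 in Arabidopsis) had 113, 108 and 107 CPM at 8 h, against 34.7, 35.7 and 35.4 CPM at 2 h (log2 change 1.63, SE 0.049, adjusted p 2.55e-27). LUX (Ft2.5970) and ELF3 (Ft3.1550), partners in the evening complex, rose by 2.83 and 1.36, GIGANTEA (GI, Ft5.1410) by 1.11 and the blue-light receptor ADO1 (Ft8.888) by 0.77. The 2 APRR5 genes went opposite ways: Ft3.2199 had 344, 327 and 328 CPM at 8 h, against 75.3, 81.2 and 81.3 CPM at 2 h (log2 change 2.07), whereas Ft5.2085 had 93.5, 92.1 and 96.2 CPM at 8 h, against 356, 358 and 368 CPM at 2 h (log2 change -1.94). In each gene the 3 libraries of one time lay far from the 3 of the other.

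Levels over all 4 times show where the 2 h to 8 h contrast sits. LHY Ft5.2081 averaged 1272, 357, 63.6 and 2.85 CPM at 0, 2, 4 and 8 h, GI 354, 538, 1277 and 1159 CPM, and LUX Ft2.5970 0.528, 2.12, 5.90 and 15.04 CPM. The decline of LHY had thus begun by 2 h, and the level of GI at 4 h was above that at 8 h. With no untreated series at these hours, the daily course of these genes and their course in PEG cannot be told apart.

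**Figure D3:**
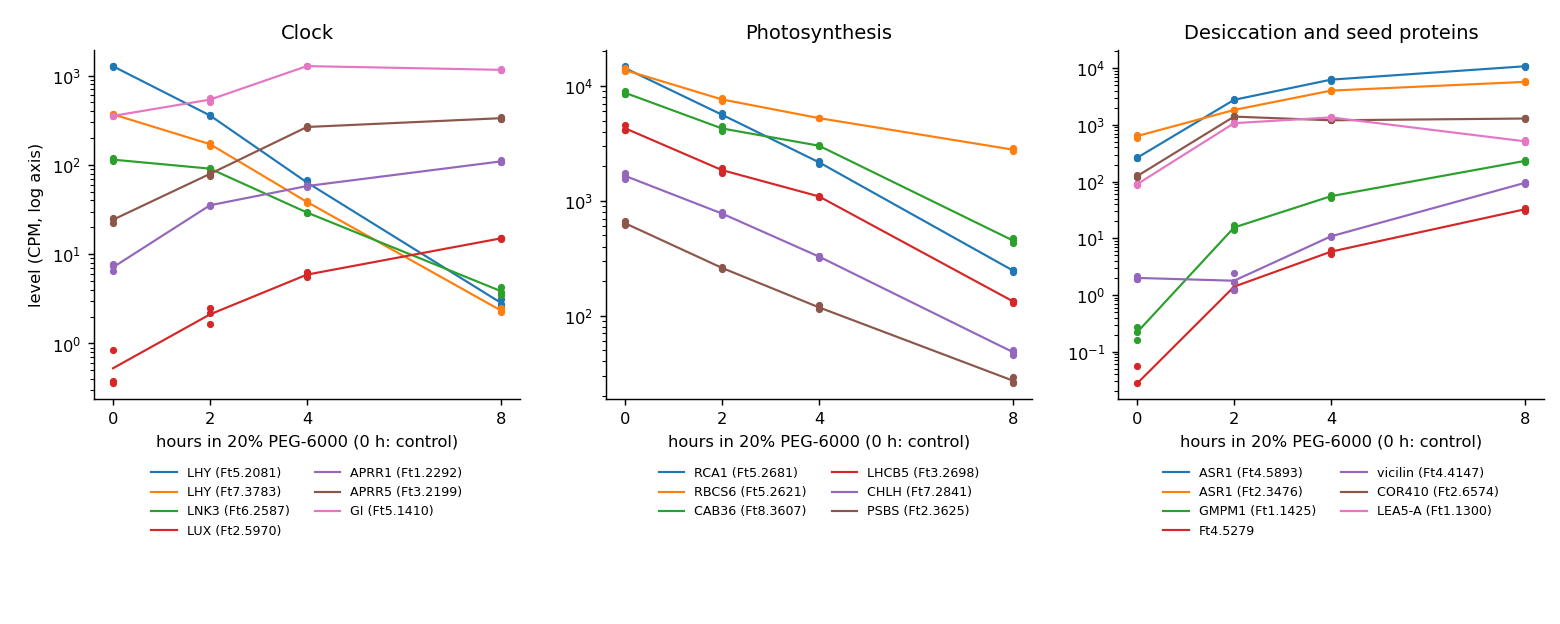
Level in CPM (log axis) at 0, 2, 4 and 8 h of 7 clock genes, 6 photosynthesis genes and 7 genes for desiccation and seed proteins. Points are libraries, 3 per time (a library at 0 is not drawn), and lines join the group means. Both LHY genes and the photosynthesis genes decline over the series, and most desiccation genes climb, while LEA5-A and COR410 are near their highest by 2 or 4 h.

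Most genes for protective proteins of drying tissue rose. Among LEA proteins, dehydrins and desiccation proteins 18 of 23 tested genes rose, 14 by at least 2-fold, and 4 fell, with a median log2 change of 1.82. With a filter that keeps only genes of at least 1 CPM in 3 libraries and 5 CPM on average, 11 of 13 rose and 2 fell, with a median of 1.12, and limma on log2(FPKM + 1) with no filter on low values gave a median of 0.88. The median was the highest of the 51 lists, though with the stricter filter it stood below that of secondary wall and vascular markers (1.199, over 8 genes). ECP63 (Ft3.119), a LEA protein first known from carrot embryos, had 807, 762 and 785 CPM at 8 h, against 77.8, 77.7 and 80.3 CPM at 2 h (log2 change 3.32, SE 0.040, adjusted p 1.71e-40). GMPM1 (Ft1.1425), a seed maturation protein, had 234, 239 and 223 CPM at 8 h, against 15.3, 14.00 and 17.2 CPM at 2 h (log2 change 3.90, SE 0.058, adjusted p 1.96e-37). LEA D-34 (Ft4.5279) had 32.97, 34.1 and 30.4 CPM at 8 h, against 1.70, 1.23 and 1.27 CPM at 2 h (log2 change 4.53, SE 0.13, adjusted p 1.37e-28). None of the 3 had overlapping libraries, and all 3 were under 1 CPM on average at 0 h.

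Members abundant at 2 h differed in direction. COR410 (Ft2.6574), a dehydrin and the highest of the list, had 1323, 1299.7 and 1264 CPM at 8 h, against 1409, 1454 and 1340.3 CPM at 2 h (log2 change -0.11, SE 0.034, adjusted p 0.00399), and its direction turns with library totals as the scale (log2 change 0.019, adjusted p 0.624). LEA5-A (Ft1.1300) had 506, 533 and 499.5 CPM at 8 h, against 1049.9, 1088 and 1080.4 CPM at 2 h (log2 change -1.06, SE 0.034, adjusted p 1.05e-26). Its close relative LEA5 (Ft6.1647) rose to 1157 CPM at 8 h, against 862 CPM at 2 h (log2 change 0.42). The list summed to 706, 4019, 4735 and 4986 CPM at 0, 2, 4 and 8 h.

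Seed storage and oil body genes did not all move one way. Of 13 tested, 7 rose and 1 fell (median 0.31). Besides vicilin Ft4.4147, the oleosins Ft8.2523 and Ft3.1854, which coat oil bodies, rose by 4.53 and 3.88, to means of 23.02 and 12.6 CPM at 8 h, against 0.986 and 0.845 CPM at 2 h. The 11S globulin Ft8.1805, the most abundant, fell to 62.3 ± 4.93 CPM at 8 h, against 118 ± 5.18 CPM at 2 h (SD, n = 3 each). Of the other 11S, 12S and 13S globulin genes, 3 did not pass and 1, Ft4.4081, was called higher by a narrow margin with overlapping libraries (adjusted p 0.0494, and 0.0558 with DESeq2 size factors in place of TMM).

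Compatible solutes showed a mixed picture, with 4 of 12 genes higher and 7 lower (median -0.20). POX1 (Ft5.2663), the proline dehydrogenase that breaks proline down, had 60.6, 57.5 and 58.3 CPM at 8 h, against 203, 211 and 203 CPM at 2 h (log2 change -1.81, SE 0.040, adjusted p 9.33e-32), and pyrroline-5-carboxylate reductase (Ft8.534), the last step of proline synthesis, had 47.5, 45.5 and 44.2 CPM at 8 h, against 20.8, 17.97 and 17.2 CPM at 2 h (log2 change 1.29, SE 0.068, adjusted p 1.73e-19). Their libraries were thus low at 8 h for the breakdown enzyme and high at 8 h for the synthesis enzyme. Of the raffinose enzymes, RFS6 (Ft6.3528) and RFS1 (Ft5.1181) fell (log2 changes -1.42 and -1.60) after means of 2236 and 816 CPM at 4 h, and RFS2 Ft4.1125 rose by 1.40. The stachyose synthase STS1 (Ft5.1528) was called higher with 1 library apart from the rest. It had 13.01, 8.96 and 8.84 CPM at 8 h, against 7.94, 8.78 and 8.05 CPM at 2 h, and without the first 8 h library its log2 change was 0.11 (adjusted p 0.466). It was not called without the first or the third 2 h library either (adjusted p 0.0712 and 0.0651).

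Starch and sucrose genes were divided, 31 of 89 higher and 35 lower (median -0.04). A sucrose synthase (SS, Ft4.2631), which splits sucrose, had 839.8, 843 and 817 CPM at 8 h, against 176, 186 and 194 CPM at 2 h (log2 change 2.17, SE 0.040, adjusted p 1.44e-34), and alpha-glucan phosphorylase (Ft8.4297), which releases glucose phosphate from starch, rose by 2.86. Starch synthase SS2 (Ft5.591) fell by 1.83 besides WAXY above, and the beta-amylase BAM1 (Ft7.5172) fell by 0.86. Under library totals as the scale the counts of this list turn to 38 higher and 32 lower.

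ABA metabolism and signalling did not move as a block. For synthesis and breakdown 5 of 20 genes rose and 10 fell (median -0.14). Zeaxanthin epoxidase (Ft4.4858), an early step, had 145, 149 and 143 CPM at 8 h, against 474, 467 and 469.98 CPM at 2 h (log2 change -1.69, SE 0.036, adjusted p 2.26e-32). The most abundant of the genes for NCED, the rate-limiting dioxygenase, was Ft6.1013, which fell by 0.33, and the low NCED1 Ft8.2694 rose by 0.87. Of the CYP707A hydroxylases that inactivate ABA, CYP707A2 Ft2.5976 had 83.04, 84.2 and 79.6 CPM at 8 h, against 35.7, 34.5 and 35.7 CPM at 2 h (log2 change 1.22, SE 0.052, adjusted p 1.77e-22), while CYP707A1 Ft3.5518 and Ft2.6073 fell (log2 changes -0.61 and -0.49).

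For ABA receptors, phosphatases and kinases 15 of 43 rose and 17 fell, a balance that library totals as the scale turn to 19 higher and 12 lower. The receptor PYL8 (Ft5.954) had 131, 130.4 and 134 CPM at 8 h, against 24.8, 24.1 and 22.9 CPM at 2 h (log2 change 2.46, SE 0.057, adjusted p 2.68e-31). SAPK10 (Ft7.2477), a SnRK2-type kinase that ABA activates, had 249, 246 and 244 CPM at 8 h, against 63.1, 68.2 and 68.7 CPM at 2 h (log2 change 1.88, SE 0.042, adjusted p 8.39e-32), and the phosphatase ABI1 (Ft6.1992), which holds such kinases off, rose by 0.51 to 831 CPM at 8 h. In the control ABI1 averaged 27.2 CPM, so most of its level had been reached by 2 h, at 585 CPM. The transcription factor ABF2 (Ft3.5524) fell by 0.44.

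Stress transcription factors changed family by family. WRKY factors, which are known from defence and wounding, were more often lower than higher: 36 of 72 tested fell, 25 by at least 2-fold, and 14 rose (median -0.25), or 31 and 21 with library totals as the scale. WRKY70 (Ft2.4587) had 17.4, 17.5 and 18.5 CPM at 8 h, against 149.7, 158 and 164 CPM at 2 h (log2 change -3.15, SE 0.054, adjusted p 1.68e-35). WRKY53 (Ft6.578) and WRKY60 (Ft8.363) fell (log2 changes -3.57 and -2.80), and no WRKY rise among genes above 5 CPM exceeded 0.64 (WRKY13, Ft7.4876). WRKY60 had averaged 3.56, 83.8, 34.5 and 12.03 CPM at 0, 2, 4 and 8 h.

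The NAC family had 19 of 58 higher and 27 lower (median -0.22). JA2L Ft2.5584, a NAC factor that in tomato acts in stomatal reopening, had 37.2, 38.8 and 38.5 CPM at 8 h, against 173, 163 and 171 CPM at 2 h (log2 change -2.15, SE 0.046, adjusted p 3.01e-32), NAC6 (Ft5.305) and NAC048 (Ft2.1099) fell (log2 changes -2.62 and -2.72), and NAC104 (Ft6.3603) rose by 2.15. HD-ZIP factors were mostly higher, 26 of 46 against 10 lower (median 0.33). HOX22 Ft7.3765, the most abundant, had 1063, 992 and 999 CPM at 8 h, against 607, 579 and 588 CPM at 2 h (log2 change 0.78, SE 0.037, adjusted p 3.81e-21), and in the control it averaged 70.3 CPM. ATHB-13 (Ft4.1015) rose by 1.59.

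DREB factors, which bind the dehydration-responsive element, rose in 6 of 13 tested genes and fell in 2, or 1 with library totals as the scale. DREB2C (Ft5.2361) had 81.01, 71.03 and 72.02 CPM at 8 h, against 31.4, 31.4 and 30.2 CPM at 2 h (log2 change 1.27, SE 0.059, adjusted p 2.68e-21). DREB1B (Ft5.446), the most abundant, had 131, 119 and 128 CPM at 8 h, against 131, 133 and 126 CPM at 2 h with overlapping libraries and no call (log2 change -0.05, adjusted p 0.358, and a log2 change of 0.087 with library totals as the scale), after 0.346 CPM in the control. Ethylene-responsive factors were 34 higher and 42 lower of 92. Among them WRI1 (Ft3.3407), which in Arabidopsis drives oil synthesis in seeds, had 26.7, 30.9 and 30.4 CPM at 8 h, against 6.52, 6.96 and 7.66 CPM at 2 h (log2 change 2.06, SE 0.10, adjusted p 5.29e-21), and ERF1A (Ft6.374) and ERF6 (Ft4.574) fell (log2 changes -2.40 and -1.95).

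Heat shock proteins were more often lower, with 42 of 85 falling and 20 rising (median -0.23), or 38 and 29 with library totals as the scale. Cytosolic chaperones were among the falls: HSC80 (Ft8.2665), of the HSP90 family, had 138, 129 and 137 CPM at 8 h, against 559.9, 575 and 585 CPM at 2 h (log2 change -2.09, SE 0.038, adjusted p 8.44e-35), and HSC-2 Ft2.2877, of the HSP70 family, had 2320.3, 2291 and 2321 CPM at 8 h, against 4113, 4162 and 4173 CPM at 2 h (log2 change -0.84, SE 0.029, adjusted p 1.36e-25). Small heat shock proteins HSP19.0 (Ft2.6550), HSP21 (Ft3.4139) and HSP18.1 (Ft2.3083) rose by 3.45, 1.66 and 0.90, from lower levels. Heat stress factors were split, 12 higher and 14 lower of 32. HSFA6b Ft7.5245 had 133, 123.4 and 130.5 CPM at 8 h, against 39.7, 39.7 and 38.2 CPM at 2 h (log2 change 1.72, SE 0.049, adjusted p 3.09e-28), and the abundant HSFA2C Ft6.1491 fell by 0.47.

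The study concerns flavonoid synthesis and its MYB regulators, and the flavonoid route changed differently at different steps. Most entry enzymes fell: of 11 tested genes for phenylalanine ammonia-lyase (PAL), cinnamate 4-hydroxylase (C4H) and 4-coumarate-CoA ligase (4CL) 9 fell and 1 rose (median -0.62). The rise was PAL Ft6.641, at 233, 243 and 239 CPM at 8 h, against 145, 148 and 141 CPM at 2 h (log2 change 0.72, SE 0.038, adjusted p 2.26e-19), the most abundant PAL gene. All other PAL genes fell, from -0.24 for PAL3 (Ft5.1292) to -1.03 for TPA1 (Ft8.3037), and the PAL genes summed to 411 CPM at 8 h, against 386 CPM at 2 h. C4H fell in 4 of 5 genes, among them CYP73A4 (Ft2.5323) at 225, 223 and 205 CPM at 8 h, against 339, 329 and 331 CPM at 2 h (log2 change -0.62, SE 0.040, adjusted p 9.51e-17). 4CL1 (Ft3.946) had 40.1, 36.3 and 36.6 CPM at 8 h, against 108, 101 and 107 CPM at 2 h (log2 change -1.48, SE 0.051, adjusted p 2.35e-25).

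Chalcone synthase, the first step committed to flavonoids, went the other way. Of 9 genes for it 6 rose and 2 fell, with a median of 0.83. CHS Ft3.2401, the main copy, had 729.9, 667 and 699.5 CPM at 8 h, against 385, 405 and 388 CPM at 2 h (log2 change 0.83, SE 0.038, adjusted p 1.62e-21). The CHS2 copies Ft3.228 and Ft3.249 rose further from lower levels, with 58.2, 63.1 and 60.4 CPM at 8 h, against 9.75, 7.31 and 11.4 CPM at 2 h for Ft3.228 (log2 change 2.67, SE 0.10) and a log2 change of 2.31 for Ft3.249. CHS Ft5.2370 and CHS2 Ft6.200 fell (log2 changes -0.37 and -0.31). The summed level of chalcone synthase genes was 1006 CPM at 8 h, against 610.4 CPM at 2 h.

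Downstream, both chalcone isomerase genes rose, CHI Ft5.2894 by 0.45. The other, CHI Ft6.2359, was near the floor, at 0.437 CPM at 8 h, against 0.121 CPM at 2 h. Of 6 flavanone 3-hydroxylase (F3H) genes 5 rose, among them Ft2.914 by a narrow margin (adjusted p 0.0495). F3H Ft8.3108 had 64.95, 58.5 and 63.1 CPM at 8 h, against 28.1, 24.8 and 24.9 CPM at 2 h (log2 change 1.26, SE 0.069, adjusted p 6.33e-19), while the more abundant Ft7.4650 fell by 0.21 and was not called with library totals as the scale (adjusted p 0.0951). Of 3 genes for flavonol synthase (FLS), which makes flavonols such as the aglycone of rutin, 1 rose and 2 fell. Among the falls, Ft3.2826 had overlapping libraries, at 6.55 ± 1.33 CPM at 8 h, against 8.84 ± 3.34 CPM at 2 h (SD, n = 3 each, log2 change -0.43, adjusted p 0.015). The other genes are neighbours that split: FLS Ft5.635 had 75.5, 76.6 and 82.03 CPM at 8 h, against 29.4, 27.9 and 33.5 CPM at 2 h (log2 change 1.37, SE 0.057, adjusted p 1.01e-22), and the adjacent Ft5.634 had 18.7, 21.2 and 22.6 CPM at 8 h, against 34.01, 30.5 and 28.7 CPM at 2 h (log2 change -0.58, SE 0.083). At 2 h these 2 neighbours were at similar levels, and at 8 h their libraries stood far apart. All 3 FLS genes summed to 105 CPM at 8 h, against 70.2 CPM at 2 h. The flavonoid 3'-hydroxylases (F3'H), which add the second hydroxyl of quercetin, fell in 5 of 6 genes. All 5 carry the name CYP75B137, 4 of them in a row (Ft3.39 to Ft3.42), and may share reads. CYP75B137 Ft3.39 had 74.9, 81.7 and 80.5 CPM at 8 h, against 185, 179 and 174 CPM at 2 h (log2 change -1.18, SE 0.042, adjusted p 3.5e-25), and the remaining gene, CYP75B2 (Ft8.5253), rose by 0.57 to 62.96 CPM.

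All 6 tested genes of the anthocyanidin and proanthocyanidin branch were called higher, by small amounts: DFR (Ft4.5802) had 197, 189.8 and 185 CPM at 8 h, against 171, 163 and 155 CPM at 2 h (log2 change 0.23, SE 0.041, adjusted p 6.99e-06), and the others rose by 0.16 to 0.45. This count is fragile, since 3 of the 7 then tested passed without the first 8 h library, and LAR (Ft3.2588) was not called without the second 2 h library (adjusted p 0.0564). Of 17 genes for flavonoid sugar transfer 5 rose and 4 fell, or 6 and 3 with library totals as the scale. RT (Ft4.2408), annotated as an anthocyanidin glucoside rhamnosyltransferase and the most abundant of them, had 140.4, 146 and 134 CPM at 8 h, against 48.9, 48.1 and 49.6 CPM at 2 h (log2 change 1.52, SE 0.047, adjusted p 4.47e-27). In the whole flavonol list 15 of 28 rose and 11 fell (median 0.32), whereas the deposited pathway named flavonoid biosynthesis, with 56 tested genes, had 20 higher and 26 lower (median -0.17). MYB12 (Ft5.363), which in Arabidopsis activates flavonol synthesis, had 10.1, 8.81 and 9.93 CPM at 8 h, against 3.31, 2.41 and 3.04 CPM at 2 h (log2 change 1.72, SE 0.16, adjusted p 8.34e-12).

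**Figure D4:**
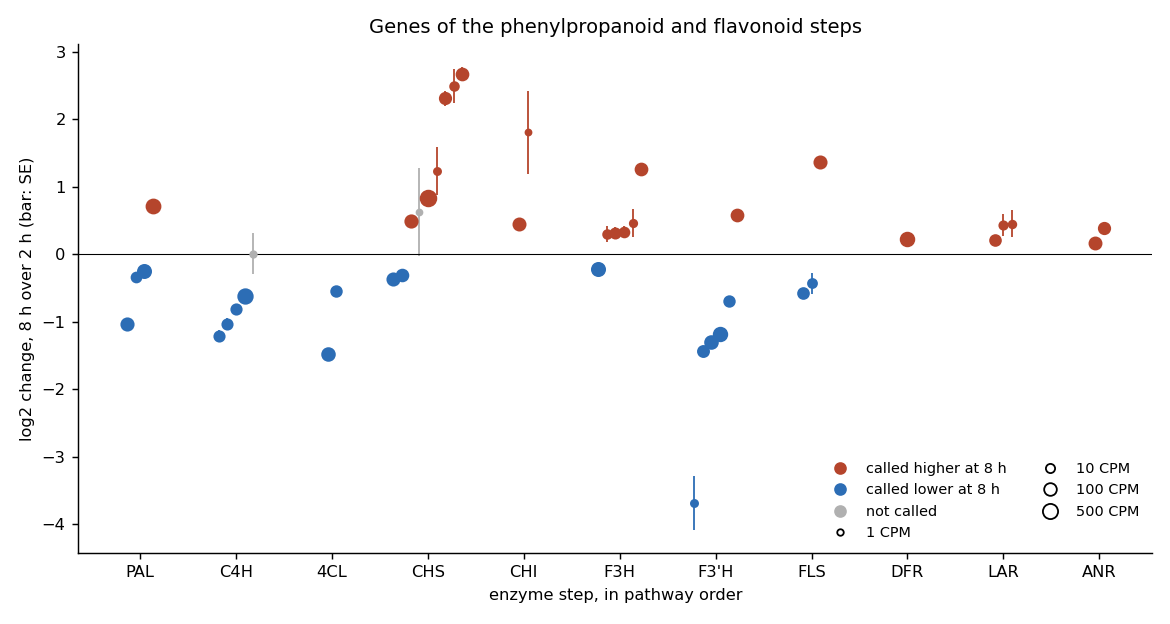
Log2 change, 8 h over 2 h, with its standard error, of each tested gene at the steps of the phenylpropanoid and flavonoid route, in pathway order. Colour gives the call and point size the higher of the 2 group means in CPM. Entry steps (C4H, 4CL) and F3'H lie mostly below 0 and chalcone synthase, F3H, LAR and ANR mostly above.

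MYB factors as a family showed 43 higher and 38 lower of 126 tested (median 0.05), or 54 and 33 with library totals as the scale (median 0.19). MYB78 (Ft5.998) had 22.9, 27.4 and 22.2 CPM at 8 h, against 3.76, 3.52 and 3.43 CPM at 2 h (log2 change 2.75, SE 0.11, adjusted p 4.02e-23) and MYB6 (Ft5.2098), annotated as a repressor, rose by 1.37. MYB63 (Ft3.299), which in Arabidopsis activates lignin synthesis, had 1.41, 2.38 and 1.59 CPM at 8 h, against 20.1, 18.5 and 21.7 CPM at 2 h (log2 change -3.50, SE 0.15, adjusted p 2.1e-22). MYB20 (Ft4.2382) fell by 1.55, and MYB73 (Ft3.5601) fell by 0.82.

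Lignin and peroxidase genes were more often lower than higher. Lignin genes fell in 34 of 69 and rose in 17 (median -0.28), secretory peroxidases fell in 23 of 49 and rose in 13 (median -0.62). The peroxidase median depends on low genes: it was -1.38 with the filter at 5 CPM on average, -0.09 with no filter, and -0.20 with limma on log2(FPKM + 1). The laccase LAC9 (Ft5.991), of the enzymes that polymerise lignin, had 3.98, 4.18 and 4.35 CPM at 8 h, against 48.7, 62.8 and 51.6 CPM at 2 h (log2 change -3.70, SE 0.093, adjusted p 4.48e-30) after 207 CPM at 4 h. CCOAOMT1 (Ft5.843), which methylates lignin precursors, had 23.7, 21.6 and 19.8 CPM at 8 h, against 113, 105 and 111 CPM at 2 h (log2 change -2.34, SE 0.066, adjusted p 1.92e-28). PER12 (Ft4.4444), the most abundant peroxidase, had 38.4, 47.3 and 39.5 CPM at 8 h, against 452, 471 and 426 CPM at 2 h (log2 change -3.43, SE 0.052, adjusted p 4.44e-37), PER51 (Ft7.5013) fell by 4.24, and PER64 (Ft7.3221) and PER42 (Ft6.2201) rose by 4.14 and 2.67.

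The cellulose synthases of the secondary cell wall rose together. CESA7 (Ft3.965) had 22.7, 21.6 and 19.6 CPM at 8 h, against 1.92, 1.497 and 1.91 CPM at 2 h (log2 change 3.58, SE 0.15, adjusted p 2.21e-22). CESA8 (Ft8.5098) had 25.97, 23.4 and 22.5 CPM at 8 h, against 2.59, 2.58 and 3.46 CPM at 2 h (log2 change 3.05, SE 0.12, adjusted p 2.63e-23), and CESA4 (Ft2.381), the third subunit of that complex, 28.9, 29.1 and 26.4 CPM at 8 h, against 3.79, 3.67 and 4.87 CPM at 2 h (log2 change 2.77, SE 0.14, adjusted p 1.97e-20). Their earlier levels were all low: CESA7 averaged 1.91, 1.78, 2.06 and 21.3 CPM at 0, 2, 4 and 8 h, CESA8 2.50, 2.88, 3.12 and 23.9 CPM and CESA4 3.86, 4.11, 3.91 and 28.1 CPM. FLA11 (Ft3.803), a wall protein expressed with them in Arabidopsis, had 44.3, 40.99 and 39.1 CPM at 8 h, against 2.28, 2.05 and 2.88 CPM at 2 h (log2 change 4.10, SE 0.12, adjusted p 6.55e-28). These genes serve here as markers of xylem and fibres. The list of secondary wall and vascular markers as a whole had 6 higher and 6 lower of 12. Changes of at least 2-fold were called for 5 members higher and 3 lower. The phloem proteins PP16-1 (Ft1.746) and PP16-2 (Ft5.1301) fell (log2 changes -1.01 and -0.44). The summed level of the list was 214 to 234 CPM at 8 h, against 159 to 166 CPM at 2 h. Whether the share of vascular tissue in the samples differed was not tested.

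Among cuticle and lipid transfer genes 30 of 53 rose, 22 by at least 2-fold, and 16 fell, with a median of 0.83. LTP1 (Ft2.4267), a lipid transfer protein, had 3182, 3496 and 3058 CPM at 8 h, against 417, 398 and 411 CPM at 2 h (log2 change 2.99, SE 0.040, adjusted p 5.01e-39). CER26 (Ft5.1687), which in Arabidopsis extends wax chains, had 255, 275 and 258 CPM at 8 h, against 35.8, 37.8 and 35.7 CPM at 2 h (log2 change 2.85, SE 0.047, adjusted p 5.25e-36) and averaged 2.00 CPM in the control. EARLI1 (Ft4.335) and KCS1 (Ft7.4965) fell (log2 changes -2.29 and -1.96). With the filter at 5 CPM on average, the counts were 13 higher and 14 lower and the median -0.03, so the balance rests on genes at low levels, and LTP1 and CER26 are among those kept.

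Aquaporins, the water channels of membranes, were mostly lower, 19 of 32 tested against 7 higher (median -0.71). PIP2-2 Ft3.3223, the most abundant plasma membrane channel, had 557, 529.6 and 506 CPM at 8 h, against 1321, 1348 and 1340.1 CPM at 2 h (log2 change -1.33, SE 0.035, adjusted p 2.46e-29), and PIP2-2 Ft2.2721 had 89.4, 83.5 and 77.8 CPM at 8 h, against 667, 690.3 and 682 CPM at 2 h (log2 change -3.02, SE 0.042, adjusted p 1.44e-38). TIP1-3 (Ft6.668), in the vacuole membrane, fell by 2.27 to 251 CPM at 8 h, against 1214 CPM at 2 h. PIP2-1 Ft8.374 rose, at 87.2, 76.8 and 79.9 CPM at 8 h, against 23.2, 19.7 and 23.6 CPM at 2 h (log2 change 1.87, SE 0.071, adjusted p 5.16e-24). The summed level of the family averaged 9768, 7647, 4166 and 3679 CPM at 0, 2, 4 and 8 h.

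Enzymes that loosen or remodel the wall were divided. Expansins and xyloglucan enzymes rose in 25 and fell in 23 of 70, pectin enzymes rose in 34 and fell in 39 of 105, and the pectin balance turns to 42 higher and 34 lower with library totals as the scale. XTHB (Ft1.2575), a xyloglucan endotransglucosylase, had 533, 561 and 566 CPM at 8 h, against 138, 134 and 129 CPM at 2 h (log2 change 2.05, SE 0.038, adjusted p 2.83e-34). XTH22 Ft6.1557 had 6.01, 5.62 and 5.03 CPM at 8 h, against 49.97, 50.8 and 50.5 CPM at 2 h (log2 change -3.18, SE 0.071, adjusted p 9.93e-32), and the pectinesterases PME41 (Ft2.804) and PECS-2.1 (Ft1.2870) fell (log2 changes -5.84 and -3.84). PECS-2.1 had been at 196 CPM at 4 h.

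Hormone genes besides ABA moved in both directions. Jasmonate genes fell in 24 of 41 and rose in 10 (median -0.68), with the 12-oxophytodienoate reductases OPR11 (Ft6.1317) and OPR1 (Ft6.1313) at -2.85 and -1.92 and allene oxide cyclase (AOC, Ft1.463), a synthesis enzyme, at 1.54. The lipoxygenase LOX2.1, given with the largest rises, was also higher. The deposited pathway named alpha-linolenic acid metabolism was nearer to balance, with 20 higher and 25 lower of 55 tested genes (median -0.13). Cytokinin genes fell in 25 of 47 and rose in 5 (median -0.42), or 22 and 10 with library totals as the scale. The activating enzyme LOG3 (Ft3.815) and the response regulator ARR4 (Ft6.858) fell (log2 changes -2.81 and -1.62), and the receptors AHK2 (Ft5.191) and AHK3 (Ft6.96) rose by 0.83 and 0.45. For ethylene synthesis 3 of 10 rose and 4 fell: ACO1 Ft2.6493, the main oxidase, had 179.8, 182 and 179 CPM at 8 h, against 862, 877 and 878 CPM at 2 h (log2 change -2.28, SE 0.035, adjusted p 6.7e-37).

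Auxin response genes were more often higher, 57 of 129 against 36 lower (median 0.14). SAUR32 (Ft4.4922) had 25.4, 26.01 and 23.7 CPM at 8 h, against 1.75, 1.35 and 1.77 CPM at 2 h (log2 change 3.94, SE 0.13, adjusted p 3.08e-26), ARF4 (Ft8.3655) rose by 2.09, and GH3.10 (Ft8.3672), of a family that conjugates hormones to amino acids, fell by 2.96. Gibberellin oxidases rose in 6 and fell in 3 of 14. KAO1 (Ft5.1055) and KO (Ft5.3010), early synthesis enzymes, rose by 1.05 and 1.14, as did GA2OX8 (Ft4.57), an enzyme that inactivates gibberellin, by 3.20.

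Glutathione S-transferases rose in 23 and fell in 26 of 57 (27 higher and 22 lower with library totals as the scale), and antioxidant enzymes rose in 10 and fell in 16 of 35 (median -0.28). GSTU9 (Ft5.836) had 5.39, 6.77 and 7.98 CPM at 8 h, against 130.5, 151 and 130.4 CPM at 2 h (log2 change -4.35, SE 0.073, adjusted p 9.78e-36), a gene that averaged 12.4 CPM at 0 h and 238 CPM at 4 h. GSTT1 (Ft4.3619) rose by 3.16. Catalase CAT2 (Ft5.1552), which removes hydrogen peroxide, fell by 0.42 to 1486 CPM at 8 h, against 1990.3 CPM at 2 h, and a glutathione reductase (Ft5.1723) fell by 0.99 after 244 CPM at 4 h.

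Translation genes shifted by small amounts, whose balance depends on the scale. Cytosolic ribosomal proteins fell in 140 of 269 genes and rose in 29 (median -0.12), and organelle ribosomal proteins fell in 36 of 87 and rose in 14. Ribosome biogenesis genes fell in 29 of 73 and rose in 12, and tRNA ligases and translation factors fell in 60 of 147 and rose in 31. With library totals as the scale the counts became 75 higher and 69 lower for cytosolic ribosomal proteins, 26 and 25 for those of organelles, 29 and 9 for ribosome biogenesis, and 54 and 29 for translation factors. With TMM factors, the deposited pathway named ribosome biogenesis in eukaryotes had 29 higher and 25 lower of 102 tested genes (median 0.05). Among the genes that fell, RPL1 Ft8.2680 of the chloroplast had 11.1, 10.8 and 10.4 CPM at 8 h, against 356, 345 and 339 CPM at 2 h (log2 change -5.01, SE 0.049, adjusted p 2.63e-43), and the plastid elongation factors SVR3 (Ft7.2823) and fusA1 (Ft3.1078) fell (log2 changes -1.49 and -0.90).

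Proteasome subunits rose in 26 of 58 and fell in 10 (median 0.10), and autophagy genes rose in 15 of 31 and fell in 3 (median 0.13). ATG8I (Ft5.385), a tag protein of the forming autophagosome, had 43.7, 43.1 and 41.9 CPM at 8 h, against 28.8, 27.1 and 26.7 CPM at 2 h (log2 change 0.64, SE 0.059, adjusted p 3.69e-12). Genes that break down branched-chain amino acids rose in 11 of 23 and fell in 5, and BCDH (Ft2.2029) stood at 182, 259, 497 and 377 CPM at 0, 2, 4 and 8 h. The wider deposited pathway named valine, leucine and isoleucine degradation had 27 higher and 22 lower of 63 tested genes (median 0.08). Oxidative phosphorylation genes were 27 higher and 20 lower of 74 (median 0.03). With library totals as the scale the counts became 42 higher and 11 lower for oxidative phosphorylation (median 0.16), 36 and 2 for the proteasome, and 15 and 2 for branched-chain amino acid breakdown.

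Cell cycle genes rose more often than they fell: 60 of 146 cyclins, cyclin-dependent kinases and kinesins were higher and 23 lower (median 0.23). With the filter at 5 CPM on average the counts were 29 higher and 16 lower of 74 and the median 0.03, so the shift of the median rests on genes at low levels. KIN4C (Ft2.3637), a kinesin, had 8.09, 9.08 and 9.44 CPM at 8 h, against 3.04, 3.58 and 2.99 CPM at 2 h (log2 change 1.47, SE 0.15, adjusted p 2.48e-11), and CYCD3-3 (Ft2.4144), a cyclin of the entry into division, rose by 0.99. CYCU1-1 (Ft3.342) fell by 3.20. Histone genes were 17 higher and 14 lower of 68, with linker histone H1.2 (Ft6.756), the most abundant, at 565, 531 and 526 CPM at 8 h, against 306, 299 and 306 CPM at 2 h (log2 change 0.83, SE 0.035, adjusted p 1.42e-22). Splicing genes rose in 31 and fell in 26 of 106, and the splicing regulators SR30 (Ft8.4797) and SR45A (Ft2.4488) fell (log2 changes -0.87 and -0.55). With library totals as the scale the counts became 60 higher and 10 lower for splicing genes (median 0.16) and 25 and 11 for histones.

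The pathway names deposited with the genes give 97 pathways of at least 20 tested genes, 42 with a median above 0 and 55 below. Pathway medians were taken with TMM factors only. Under library totals as the scale the median of all genes moved to 0.15, so this split and the small medians depend on the scale. The highest medians belonged to lipid routes and acid breakdown: fatty acid elongation (0.39, 20 of 39 genes higher and 11 lower), unsaturated fatty acids (0.39, 18 of 31 and 6), propanoate metabolism (0.21), fatty acid biosynthesis (0.21, 27 of 55 and 12) and butanoate metabolism (0.20). The lowest were antenna proteins (-2.27, 1 of 20 higher and 19 lower), photosynthesis (-0.85, 2 of 46 and 38), sesquiterpenoids and triterpenoids (-0.68, 7 of 32 and 20), carbon fixation (-0.62, 13 of 71 and 43) and stilbenoids, diarylheptanoids and gingerol (-0.56, 6 of 35 and 20). Genes can belong to several pathways, and these pathways overlap the lists above.

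**Figure D5:**
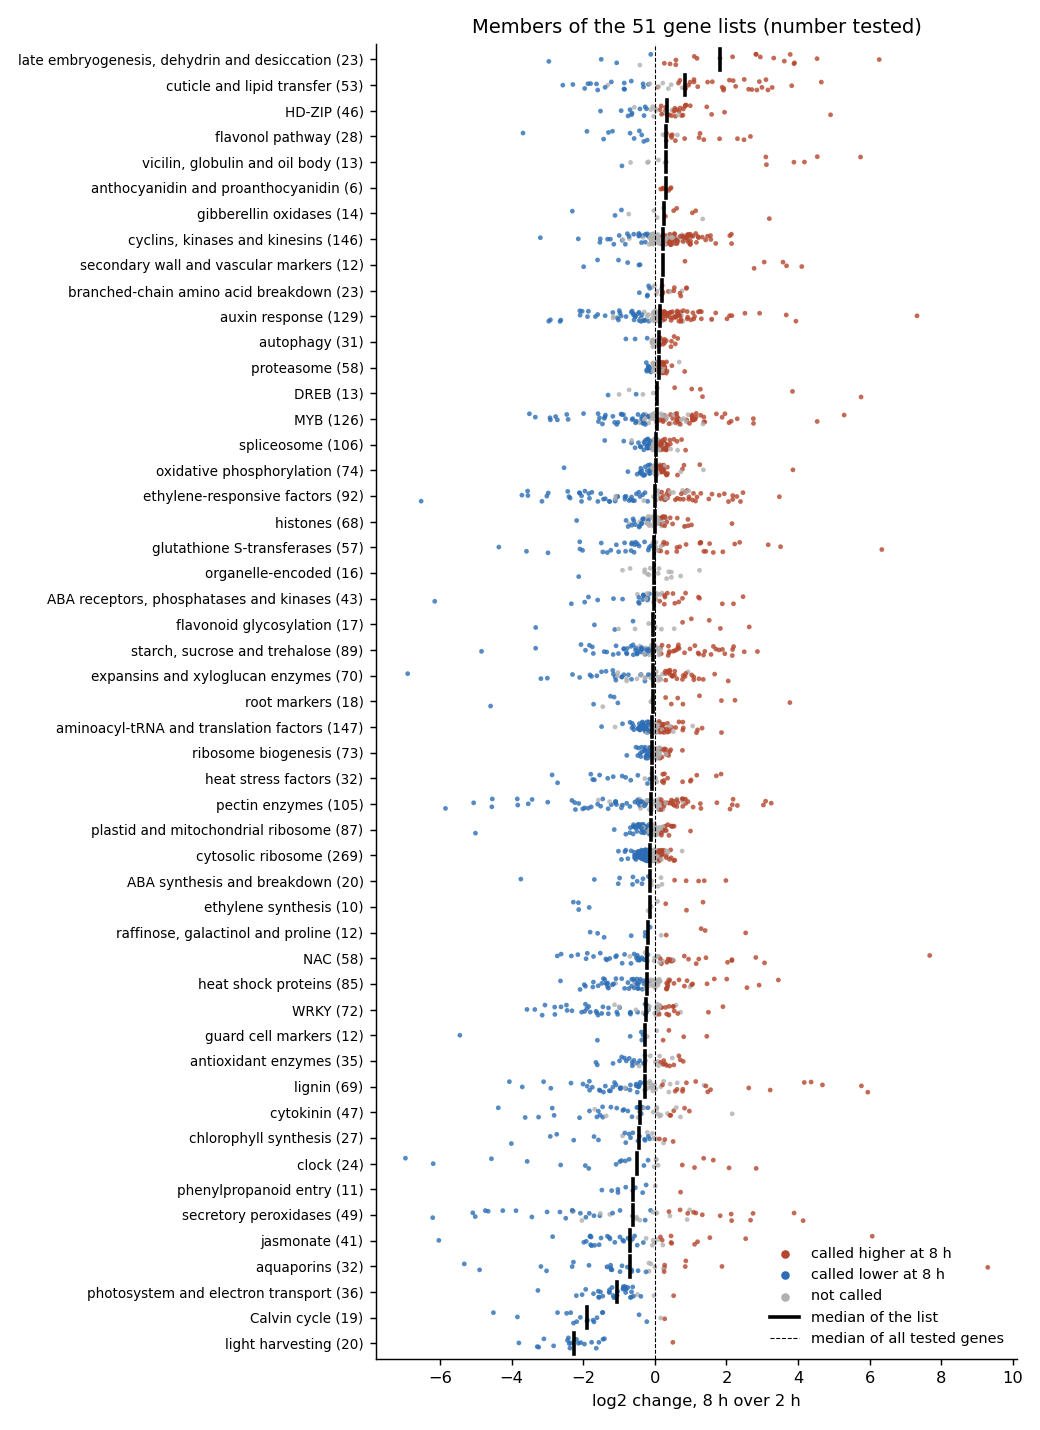
Log2 change, 8 h over 2 h, of the tested members of the 51 gene lists (number tested in brackets), ordered by list median. Black bars are list medians, from 1.82 for LEA and desiccation proteins to -2.27 for light harvesting, and the dashed line is the median of all tested genes, 0.02.

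The 4 h and 0 h levels place the contrast in the whole series. Of the 1633 genes at least 2-fold higher at 8 h, the 4 h mean lay between the 2 h and 8 h means for 1222 (74.8%) and at or above the 8 h mean for 64. The control mean was at or below the 2 h mean for 815 of them (49.9%), between the 2 for 647 (39.6%), and at or above the 8 h mean for 171 (10.5%). Of the 2487 genes at least 2-fold lower, the 4 h mean lay between for 1704 (68.5%), and the control mean was at or above the 2 h mean for 1140 (45.8%), between for 949 (38.2%) and at or below the 8 h mean for 398. TL1 is an example of a fall to below the control mean, and LOX2.1 of a rise to above it after a lower level at 2 h. These positions compare means, with no test.

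The genes with 2-fold changes were spread over all 8 chromosomes. By chromosome the share called lower by at least 2-fold ran from 9.26% to 13.1% and the share higher from 6.57% to 8.27%. The median coding length was 1029 bases for the 2-fold rises and 1062 for the 2-fold falls, against 1125 for all tested genes. Their levels were lower: the 2-fold rises had a median mean level of 3.00 CPM and the 2-fold falls 7.19 CPM, against 14.1 CPM over all tested genes. Of the genes at the threshold, the last 2 called had adjusted p-values of 0.04992 and 0.04997 with log2 changes of 0.12 and 0.46, and the first 2 not called 0.05002 and 0.05003 with 0.08 and -0.09.

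The lists of root markers, guard cell markers, and seed storage and oil body genes summed to low levels. STO-A, the oil body enzyme given above, is not in the last of these lists and at 8 h stood above its sum. Root markers summed to 115 to 118 CPM at 8 h, against 84.00 to 87.03 CPM at 2 h, with 8 of 18 higher and 5 lower. Guard cell markers summed to 201 to 225 CPM at 8 h, against 249.0 to 249.3 CPM at 2 h, 4 of 12 higher and 6 lower, and seed storage and oil body genes to 231 to 250.03 CPM at 8 h, against 164 to 169.8 CPM at 2 h. The potassium channel KAT2 (Ft8.5190) rose by 0.81, and the anion channel SLAH3 (Ft4.3403) fell by 0.69. Genes carried by the organelle genomes summed to 13.1 to 15.5 CPM at 8 h, against 11.6 to 17.7 CPM at 2 h, and 1 of 16 tested was called, lower (1 higher and 1 lower with library totals as the scale). The part that the makeup of the samples has in any list above was not tested.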

How the data were processed

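The authors deposited raw read counts per gene and FPKM (fragments scaled by gene length and library total) for 12 libraries of leaf and stem. Per the submitters' processing notes the tools were fastp, HISAT2, HTSeq and DESeq2, with no roles or versions; the build and the counting settings are not given in the sources used here. Deposited FPKM values equal the count over library total and gene length to within a relative difference of 1.72e-07. All lengths are multiples of 3, so they are coding lengths. Library preparation used a VAHTS kit after TRIzol extraction, per the labels.

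The counts of all 4 groups were fitted together with edgeR 4.0.16 in R 4.3.3 (TMM factors 0.936 to 1.10, filterByExpr by group, at 10 counts and a summed count of 15, quasi-likelihood test, 8 residual degrees of freedom, common biological coefficient of variation 4.90%). The contrast was 8 h minus 2 h, two-sided, with Benjamini-Hochberg adjustment over the 22063 genes tested at 0.05, and 4687 genes were removed by the filter. CPM are counts scaled by library total and TMM factor. Library totals lay between 30468104 and 36367529 reads in the compared groups, and replicates of a group differed by more than counting noise.

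Alternatives were DESeq2 size factors, library totals, the DESeq2 1.42.0 Wald test, other filters, limma 3.58.1 on log2(FPKM + 1) and log2(FPKM + 0.1), the 6 compared libraries alone, a replicate block, a minimum change of 1.5-fold and leaving out each library.

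Genes were named by rule: the 12 largest rises and falls among called, described, non-overlapping genes of at least 10 CPM, the 3 largest rises and falls per list at 5 CPM or more with its most abundant member, and the 10 most abundant genes. Further members of the flavonoid, clock, photosynthesis, LEA, seed protein, secondary wall, aquaporin, ABA, raffinose and guard cell lists were named after their values were seen. The 51 gene lists were built from the deposited descriptions and symbols. The comparison, members and lists were chosen with earlier results of these data known, and the organelle list was trimmed of nuclear genes after its values were seen.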

Additional observations from a re-analysis of the deposited data

How the results depend on the processing

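Among all tested genes, 13691 to 14830 were called under DESeq2 size factors, library totals without TMM scaling, the DESeq2 Wald test, no low-count filter, the 6 compared libraries alone, the replicate block and limma on log2(FPKM + 1) or log2(FPKM + 0.1), and no gene was called in the opposite direction. The filter that keeps genes of at least 5 CPM on average left 10905 called and 2105 with a 2-fold change (666 higher, 1439 lower). Limma on log2(FPKM + 1) gave 2617 with a 2-fold change, 1528 of them lower, and 2626, 1529 of them lower, with no filter on low values. A pseudocount of 1 draws the values of low genes together, and the stricter filter tests fewer of them. A test against a minimum change of 1.5-fold called 4991 genes, 1938 higher and 3053 lower. Leaving out 1 library at a time gave 13139 to 13303 called.

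The scale decides the balance of directions. With library totals in place of TMM factors the median of all genes moved to 0.15 and the calls split into 9380 higher and 5450 lower, against 6903 and 7060. Among genes named in the text, COR410 then had a log2 change of 0.019 and DREB1B of 0.087, and the limma fits on FPKM gave 0.020 and 0.085, none of them called. The balance of the ribosome, translation, starch, pectin, ABA receptor, heat stress factor and glutathione S-transferase lists turned with the scale too. With the filter at 5 CPM on average the medians moved to -0.40 for NAC, -0.46 for lignin and -0.36 for heat shock genes. Light harvesting, photosystem, Calvin cycle, LEA, WRKY, cytokinin and aquaporin genes kept their sign of median under all alternatives run.

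Libraries with the same number did not vary together (correlations of their deviations -0.036, 0.009 and -0.0002), so the numbers were not taken as pairs. With the number as a replicate block 13895 genes were called, 6842 higher and 7053 lower. Genes under a few CPM rest on few reads at these depths, and their folds are the least precise.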

Other observations

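Not all falls between 2 h and 8 h were declines from the start. For 670 of the 2487 genes at least 2-fold lower at 8 h (26.9%), the mean at 4 h was at or above that at 2 h. LAC9 (Ft5.991), the laccase, averaged 4.24, 54.3, 207 and 4.17 CPM at 0, 2, 4 and 8 h, and GSTU9 (Ft5.836), a glutathione S-transferase, 12.4, 137, 238 and 6.71 CPM. The pectinesterase PECS-2.1 (Ft1.2870) averaged 20.6, 40.02, 196 and 2.78 CPM, and RFS6 (Ft6.3528), of the raffinose route, 807, 1079, 2236 and 404 CPM. In each of the 4 genes the level at 4 h was the highest of the series, and the contrast of 8 h with 2 h does not show that level. These genes were chosen after their values were seen, and the differences between 4 h and the other times are given as values, with no test.

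Of the 1633 genes at least 2-fold higher at 8 h, 347 (21.2%) had a mean at 4 h at or below that at 2 h. LOX2.1 (Ft2.1281), the lipoxygenase, averaged 104, 3.64, 3.39 and 245 CPM at 0, 2, 4 and 8 h, and the cellulose synthase CESA4 was likewise slightly lower at 4 h than at 2 h. CESA7 and CESA8, also low at 2 and 4 h and high at 8 h, were slightly higher at 4 h than at 2 h.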
